A study of Mus musculus with 3 samples.

Results

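The 9 genes Ctss, Ctsb, Ctsd, Ctsh, Ctsz, Ctsc, Ctse, Lgmn and Ifi30 encode the proteases and the thiol reductase of the endosomal and lysosomal route of antigen processing. They were taken by gene symbol from an array of 19937 named genes, by a rule that uses no measured value, and each was read by 1 probe set. The set itself was chosen with earlier results of these data known. All 9 passed the filter on low values, which kept 12556 genes. Mature medullary thymic epithelial cells of mice aged 6 weeks, strain C57b/6 per the labels, had been sorted as EpCAM+, CD45-, Ly51 low and MHC-II high. WT cells came from Sirt1fl/fl mice and carry the floxed Sirt1 alleles without Cre. Sirt1cKO cells came from Sirt1fl/fl mice with Foxn1-Cre, whose Foxn1 promoter is active across thymic epithelium, so that deletion is not limited to medullary cells. AireKO cells came from Aire–/– mice. Typically 3 mice were pooled, RNA of about 30000 sorted cells was amplified, and each genotype gave 1 library on an Affymetrix whole-transcript array. With 1 library per genotype there is no replicate error and no test, so every difference describes a pair of libraries and not the genotypes.

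Peptides shown by MHC class II molecules are cut from proteins in acidic endosomes and lysosomes. Endopeptidases open the substrate and the invariant chain that blocks the peptide groove, exopeptidases trim the ends, and a thiol reductase breaks disulfide bonds so that the chain can unfold. Medullary thymic epithelial cells use this route, fed in part by their own proteins, to present self-antigens to developing T cells.

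In the library labelled AireKO, Ctsd, Ctsh, Ctsz and Ctsb were each at least 2-fold lower than in WT, beside 8.46% of all measured genes, and Ctsd, an aspartic protease, stood at 30.3% of its WT intensity. In the library labelled Sirt1cKO, Ctsh, an aminopeptidase, was the 1 gene of the 9 at least 2-fold lower, beside 1.68% of measured genes, and stood at 38.9% of its WT intensity. Ifi30, the thiol reductase, lay within 0.12 of its WT log2 level in both. In the set 0 genes were at least 2-fold higher in either library, beside 2.68% of measured genes in AireKO and 0.804% in Sirt1cKO. Lgmn, the asparaginyl endopeptidase, stood above WT in AireKO by 0.26, and Ctsc, a dipeptidyl peptidase, stood above WT in Sirt1cKO by 0.28, both on the log2 scale.

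**Figure D1:**
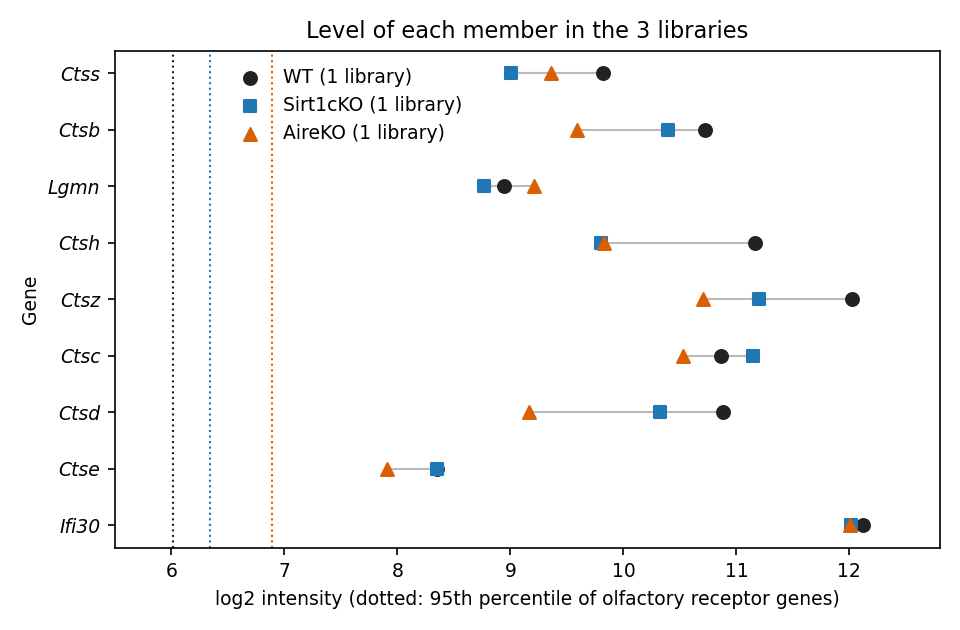
Log2 intensity of the 9 genes in the 3 libraries, with 1 point per library and dotted lines at the 95th percentile of olfactory receptor genes in each library. Every point lies to the right of its library's dotted line, Ctsd has the widest spread, 1.72, and Ifi30 the narrowest, 0.12.

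Several facts of the libraries bear on these values. Aire stood at a log2 level of 11.97 in WT, 11.24 in Sirt1cKO and 11.55 in AireKO, and Sirt1 at 11.40, 11.27 and 11.42. Probe sets spread over a transcript need not lie in a deleted part, so neither gene checks the labels. Titles and genotype fields agree, but the free-text description of AireKO names Sirt1cKO and the reverse; titles were followed, and each name stands for the library labelled so. The female-specific RNA Xist stood at 12.17, 11.46 and 6.75 in WT, Sirt1cKO and AireKO, and the Y-linked gene Eif2s3y at 4.23, 8.92 and 9.75, so sex and genotype cannot be told apart. H2-Ea, silent in the labelled strain, stood at 5.60, 5.90 and 13.23, and a difference in strain cannot be told apart from genotype either. Per RefSeq, 0 of the 9 genes lie on chromosome X, on Y or on 17, which carries H2-Ea. Their location does not tell sex or strain apart from genotype for these genes. Background was set at the 95th percentile of 1027 olfactory receptor genes, which few tissues express, and lay at 6.02 in WT, 6.34 in Sirt1cKO and 6.89 in AireKO. Of the medullary markers, Aire, Fezf2, Cd80, Epcam and the other 6 of 10 were above background in all 3 libraries, but so were cortical markers, 7 of 7 in WT, 6 in Sirt1cKO and 5 in AireKO. In sorted bulk cells, fewer cells of a type and less RNA per cell cannot be told apart.

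RefSeq promoter sequences of build GRCm38.p6 were held for 6 of the 9 genes, with 2 entries for Lgmn. The 250 bases before the start are shown for Ctsd and Ctsz, which are among the 3 genes with the widest range over the libraries. Those of Ctss and Ifi30 were added after their motif matches had been seen. Capitals mark matches, on either strand, to CACGTG, the core of the CLEAR element bound by the lysosomal regulator TFEB, to the interferon-stimulated response element, GAAA then GAAA with 2 bases between, to TTCNNNGAA, a STAT site, or to TATAAA, the TATA box. The order below is Ctsd (chr7:142387828-142388077, minus strand), Ctsz (chr2:174439040-174439289, minus strand), Ctss (chr3:95526536-95526785, plus strand) and Ifi30 (chr8:70766664-70766913, minus strand), each 5′ to 3′.
Ctsd: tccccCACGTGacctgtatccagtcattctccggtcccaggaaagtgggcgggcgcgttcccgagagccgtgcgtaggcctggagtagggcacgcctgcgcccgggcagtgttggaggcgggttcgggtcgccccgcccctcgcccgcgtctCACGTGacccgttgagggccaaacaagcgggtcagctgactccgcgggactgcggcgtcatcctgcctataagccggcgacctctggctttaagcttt
Ctsz: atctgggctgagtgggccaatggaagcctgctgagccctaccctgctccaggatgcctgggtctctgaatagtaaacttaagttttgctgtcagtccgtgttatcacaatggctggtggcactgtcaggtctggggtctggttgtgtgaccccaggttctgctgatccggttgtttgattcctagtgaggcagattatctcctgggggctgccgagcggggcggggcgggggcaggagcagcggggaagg
Ctss: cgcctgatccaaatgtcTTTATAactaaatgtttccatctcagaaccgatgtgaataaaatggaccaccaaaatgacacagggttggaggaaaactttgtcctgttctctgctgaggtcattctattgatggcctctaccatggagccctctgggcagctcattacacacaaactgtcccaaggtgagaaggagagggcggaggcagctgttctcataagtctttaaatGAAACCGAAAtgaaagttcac
Ifi30: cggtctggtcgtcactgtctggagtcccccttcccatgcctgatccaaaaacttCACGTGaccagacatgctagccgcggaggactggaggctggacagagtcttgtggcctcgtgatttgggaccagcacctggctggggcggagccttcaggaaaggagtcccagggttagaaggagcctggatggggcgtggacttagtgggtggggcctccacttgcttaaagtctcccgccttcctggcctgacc

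The Ctsd window held 2 matches to CACGTG, which begin 245 and 98 bases before the start. Ifi30 held 1, beginning 196 bases before the start, and the second Lgmn entry held 1. Over all 32851 promoter windows of this length, 6.02% held CACGTG, against 3 of the 7 entries of this gene set. Ctss held the response element as GAAACCGAAA, beginning 21 bases before the start, a motif found in 2.98% of windows. Its TATA-like match, TTTATA on the strand shown, begins 233 bases before the start. The TATA box letters were in 12.4% of all windows, and also in the second Lgmn entry. The Ctsc window held a STAT match, found in 7.02% of windows, and the Ctsz window held none of the 4 motifs. Ctsd, with 2 matches to CACGTG, had the widest range of expression and Ifi30, with 1, the narrowest. Whether motif matches bear on the levels was not tested. These matches describe letters and are not evidence of binding.

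Among the cysteine endopeptidases, Ctss (probe set 10494271) encodes cathepsin S, which removes the invariant chain in professional antigen-presenting cells. Its log2 level was 9.82 in WT, 9.01 in Sirt1cKO and 9.36 in AireKO. WT was highest and Sirt1cKO lowest, so that the difference from WT was -0.81 in Sirt1cKO and -0.46 in AireKO. Part of the AireKO value was shared by measured genes of like brightness, whose median difference was -0.29, against -0.07 in Sirt1cKO. Ctss was thus 0.17 below such genes in AireKO and 0.74 below them in Sirt1cKO. It was 0.35 higher in AireKO than in Sirt1cKO.

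Ctsb (probe set 10415844) encodes cathepsin B, which acts both as an endopeptidase and as a carboxydipeptidase. Its log2 level was 10.72 in WT, 10.39 in Sirt1cKO and 9.59 in AireKO. AireKO stood well apart here, 2.19-fold below WT, while Sirt1cKO differed from WT by -0.33. The median difference of measured genes of like brightness was -0.18 in AireKO. The 2-fold call of Ctsb in AireKO depended on the scaling, and its difference of -1.13 became -0.86 when the libraries were centred on their medians over measured genes.

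Lgmn (probe set 10402268) encodes legumain, which cuts after asparagine and also processes other cathepsins. It stood at 8.95 in WT, 8.77 in Sirt1cKO and 9.20 in AireKO on the log2 scale. This was the 1 gene of the 9 that was highest in AireKO. Its difference between AireKO and WT was 0.26, against a median of -0.30 for genes of like brightness, and 79.5% of measured genes had a difference at or below its own. Between the knockouts Lgmn differed by 0.44.

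Among the exopeptidases, Ctsh and Ctsz lay below WT in each knockout library and Ctsc did not. Ctsh (probe set 10587733) encodes cathepsin H, an aminopeptidase. Its log2 level was 11.16 in WT, 9.80 in Sirt1cKO and 9.83 in AireKO. The knockout libraries lay within 0.03 of each other and both far below WT, with folds of 2.57 in Sirt1cKO and 2.51 in AireKO. In Sirt1cKO 0.43% of measured genes differed from WT by as much or more in that direction, against 3.70% in AireKO. The WT library is shared by the comparisons, so these are not 2 independent observations.

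Ctsz (probe set 10490212) encodes cathepsin Z, a carboxypeptidase. It stood at 12.03 in WT, 11.20 in Sirt1cKO and 10.70 in AireKO. The order was graded, with a fold below WT of 1.77 in Sirt1cKO and 2.50 in AireKO. Relative to genes of like brightness the differences were -0.79 and -1.15 on the log2 scale.

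Ctsc (probe set 10554789) encodes cathepsin C, the dipeptidyl peptidase that activates granule serine proteases of leukocytes. It stood at 10.87 in WT, 11.15 in Sirt1cKO and 10.53 in AireKO. Its order differed from that of every other gene of the set, with Sirt1cKO highest. The difference from WT was 0.28 in Sirt1cKO and -0.34 in AireKO, and the knockouts differed by -0.62.

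The aspartic cathepsins are Ctsd and Ctse. Ctsd (probe set 10569319) encodes cathepsin D, a major lysosomal endopeptidase. Its log2 level was 10.88 in WT, 10.32 in Sirt1cKO and 9.16 in AireKO. AireKO was 3.30-fold below WT and 2.23-fold below Sirt1cKO, and Sirt1cKO was 1.48-fold below WT. Of measured genes, 1.39% were as far or farther below WT in AireKO. Against genes of like brightness the AireKO difference was -1.55, and it was -1.45 to -1.72 over the scalings tried. Ctse (probe set 10349648), an endosomal cathepsin restricted to few tissues, stood at 8.35 in both WT and Sirt1cKO and at 7.91 in AireKO. Its AireKO difference of -0.44 lay 0.18 below the median of genes of like brightness. Its difference in Sirt1cKO was -0.00 and became 0.10 after median centring.

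Ifi30 (probe set 10579347) encodes the interferon-inducible lysosomal thiol reductase. It stood at 12.12 in WT, 12.02 in Sirt1cKO and 12.00 in AireKO on the log2 scale. These levels were closely grouped, with differences from WT of -0.10 and -0.12. The AireKO difference changed sign after median centring, to 0.15, and with the median difference set to 0, to 0.07.

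**Figure D2:**
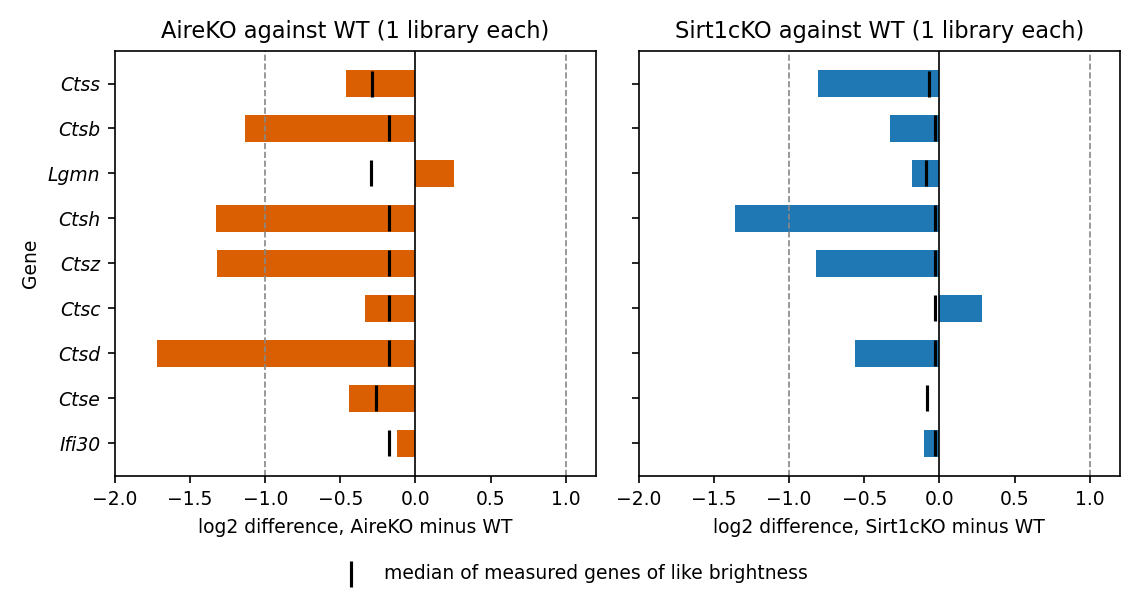
Log2 difference from WT of each gene in AireKO (left) and Sirt1cKO (right), as bars from 0, with black ticks at the median difference of measured genes of like brightness and dashed lines at 2-fold. Ctsd, Ctsh, Ctsz and Ctsb pass the 2-fold line in AireKO and Ctsh passes it in Sirt1cKO.

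Counted together, 4 of the 9 genes were at least 2-fold lower in AireKO than in WT, a share of 44.4% where all measured genes gave 8.46%. The next gene, Ctss, was under 1.5-fold lower, so the count at 1.5-fold was also 4, beside 23.6% of measured genes. The 9 genes had a median difference of -0.46, against -0.19 for all measured genes, and a median of -0.18 after subtraction of the median of genes of like brightness. The median sits on the genes that moved little, while the 4 called genes had differences between -1.13 and -1.72. Among the 6278 genes in the brightness bins from the dimmest of the 9 upward, the share at least 2-fold lower in AireKO was 10.9%.

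In Sirt1cKO, 1 of the 9 was at least 2-fold lower than in WT, a share of 11.1% where all measured genes gave 1.68%. At 1.5-fold the count was 3, namely Ctsh, Ctsz and Ctss, beside 8.27% of measured genes. The median difference of the set was -0.33, against -0.07 for all measured genes. Of the 9 genes, 8 lay below WT in AireKO, as did 63.7% of measured genes, and 8 lay below WT in Sirt1cKO, as did 58.4%. WT was the highest library for Ctss, Ctsb, Ctsd, Ctsh, Ctsz, Ctse and Ifi30, although for Ctse it exceeded Sirt1cKO by under 0.01.

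Between the knockouts, 1 of the 9 genes, Ctsd, was at least 2-fold lower in AireKO than in Sirt1cKO, against 2.72% of measured genes, and 0 were at least 2-fold higher, against 1.04%. Ctsb, at -0.80, and Ctsc, at -0.62, were also lower in AireKO. Ctss, at 0.35, and Lgmn, at 0.44, were higher there, and Ctsh, at 0.03, differed little. The endopeptidases thus did not share 1 direction between the knockouts.

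With the median of measured genes put at the same level in all libraries, the median difference of measured genes was raised by 0.27 for AireKO against WT, by 0.10 for Sirt1cKO against WT and by 0.17 for AireKO against Sirt1cKO. Loess moved the first by 0.12. Ctsd, Ctsh and Ctsz in AireKO, and Ctsh in Sirt1cKO, stayed at least 2-fold lower under quantile normalization, loess, median centring and a median difference set to 0. Ctsb in AireKO did so under none of these 4. Ctsd between the knockouts went from -1.16 to -0.99 under median centring and stayed past 2-fold under the other 3.

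**Figure D3:**
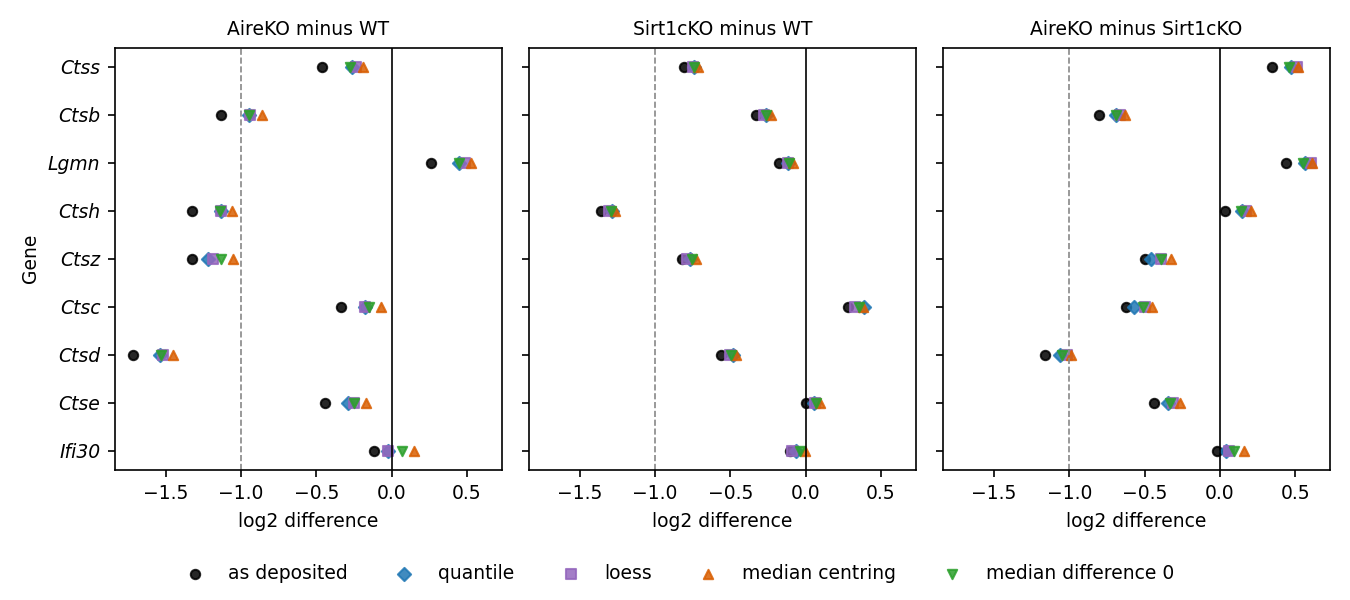
Log2 difference of each gene in the 3 comparisons, as deposited (circles) and under 4 other scalings, with a dashed line at 2-fold lower. Ctsd, Ctsh and Ctsz stay left of the line in AireKO minus WT under each scaling, and Ctsb crosses it.

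A further 7 cathepsin genes of the same family were on the array. Ctsl, the cathepsin of the cortical thymic epithelium that removes the invariant chain there, stood at 10.49 in WT, 9.59 in Sirt1cKO and 8.95 in AireKO. Its difference was -1.54 in AireKO and -0.90 in Sirt1cKO, the same graded order as Ctsz and Ctsd. Ctsa, a carboxypeptidase that protects lysosomal sialidase, stood at 10.81, 10.81 and 9.98, so that AireKO alone was lower, by -0.83. Ctso and Ctsf differed by -0.37 and -0.38 in AireKO and by -0.15 and -0.07 in Sirt1cKO, the last turning to 0.03 after median centring. Ctsk, the osteoclast collagenase, differed by 0.25 and -0.31. Ctsw, a cathepsin of cytotoxic lymphocytes, lay above background in WT and Sirt1cKO, at 6.27 and 6.47, and within it in AireKO. Ctsg, a neutrophil granule protease, was within background in all 3 libraries, as were the 7 placental cathepsin genes read by the array. Of the 5 measured genes of this further family list, 1 was at least 2-fold lower in AireKO and 0 in Sirt1cKO. The shares over all measured genes were 8.46% and 1.68%.

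Protease inhibitors had differences in both directions. Cst3, which encodes the secreted inhibitor cystatin C, stood at 12.79 in WT, 12.04 in Sirt1cKO and 12.23 in AireKO, an order like that of Ctss. Cstb, the cytosolic inhibitor cystatin B, stood at 12.00, 12.15 and 12.14. Cst6 differed from WT by -0.46 in Sirt1cKO and -0.50 in AireKO, and Serpinb6a, an intracellular serpin, by -0.41 and -0.71. Stfa2, a stefin A gene, stood at 6.24, 6.57 and 7.83. It was the 1 of 5 measured inhibitors at least 2-fold higher in AireKO, beside 2.68% of measured genes. It belongs to a cluster of closely similar genes, so its probe set may read its relatives. Cst7, the leukocyte cystatin F, and Stfa3 were above background in WT alone, at 6.64 and 6.47.

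Of the other lysosomal genes, taken from lists of further cathepsins, hydrolases, proton pump subunits, membrane proteins and sorting genes, 71 were measured. In AireKO 13 of them, or 18.3%, were at least 2-fold lower, beside 8.46% of measured genes, 12 when a fold against background is taken as its lower bound, and 0 were at least 2-fold higher. That count depended on the scaling. It was 6, or 8.45%, beside 6.67% of measured genes after quantile normalization, and 5, or 7.04%, beside 6.04% after loess. With median centring it was 4, or 5.63%, beside 4.36%, and with the median difference set to 0 it was 5, or 7.04%, beside 5.3%. Their median difference was -0.58 as deposited and -0.31 after median centring, where all measured genes had -0.19 and 0.08. In Sirt1cKO 2 were at least 2-fold lower, or 2.82% beside 1.68% of measured genes, and 1 under each of the 4 other scalings, and the median was -0.24.

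Lysosomal hydrolases gave 8 of 31 measured genes at least 2-fold lower in AireKO, beside 8.46% of measured genes, 7 by lower bounds, and 0 in Sirt1cKO. Under quantile normalization or loess the AireKO count was 3, or 9.68%, beside 6.67% and 6.04% of measured genes. Under median centring or a median difference set to 0 it was 2, or 6.45%, beside 4.36% and 5.3%. Gm2a, the activator protein of ganglioside breakdown, stood at 10.85 in WT, 10.67 in Sirt1cKO and 9.42 in AireKO. Man2b1, a lysosomal mannosidase, differed by -1.27 and Smpd1, acid sphingomyelinase, by -1.10 in AireKO. In Sirt1cKO these differed by -0.28 and -0.26, and the leading value was that of the serine carboxypeptidase gene Scpep1, at -0.78.

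The V-ATPase acidifies the compartment in which the cathepsins work. Its list held 15 measured genes. In AireKO 2 of them, or 13.3%, were at least 2-fold lower, beside 8.46% of measured genes. In Sirt1cKO it was 1, or 6.67%, beside 1.68%. Under each of the 4 other scalings the AireKO count was 1, or 6.67%, beside 4.36% to 6.67% of measured genes. The Sirt1cKO count was then 0, beside 1.18% to 1.47%. Atp6v1b2, a catalytic-sector subunit, stood at 11.19 in WT, 10.17 in Sirt1cKO and 9.68 in AireKO, and Atp6v0d1, a membrane-sector subunit, differed by -1.09 in AireKO and -0.37 in Sirt1cKO. Atp6v0e went the other way, with 0.40 and 0.37; it was singled out after its values had been seen. The median difference was -0.65 in AireKO and -0.34 in Sirt1cKO.

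Among 14 lysosomal membrane genes, 2, or 14.3%, were at least 2-fold lower in AireKO, beside 8.46% of measured genes. In Sirt1cKO it was 1, or 7.14%, beside 1.68%. In AireKO loess or median centring left 0 and the other 2 scalings left 1, beside 4.36% to 6.67% of measured genes. Sirt1cKO kept a count of 1 under all 4, beside 1.18% to 1.47%. Cd63, a tetraspanin of late endosomes, stood at 9.74 in WT, 8.62 in Sirt1cKO and 8.64 in AireKO, a pattern like that of Ctsh. Slc36a1, an amino acid transporter, differed by -1.22 in AireKO and by -0.12 in Sirt1cKO. Lamp1, a main structural protein of the membrane, stood at 11.38, 11.24 and 11.23. Lamp2, which with Lamp1 was singled out after its values had been seen, stood at 11.70, 11.98 and 12.29, highest in AireKO. None of 6 sorting genes passed 2-fold against WT, and Sort1, which encodes the sorting receptor sortilin, differed by -0.89 in AireKO and 0.29 in Sirt1cKO.

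**Figure D4:**
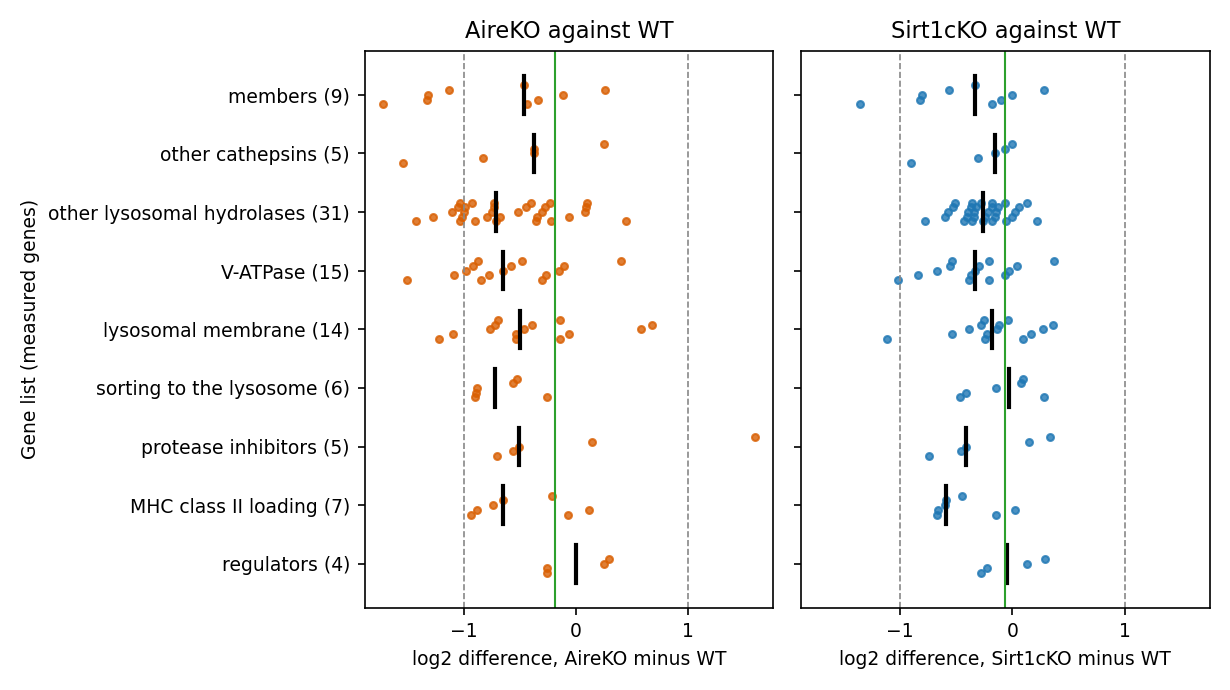
Log2 difference from WT of each measured gene, by list, in AireKO (left) and Sirt1cKO (right), with a black bar at each list's median, a green line at the median of all measured genes and dashed lines at 2-fold. In AireKO the medians of the hydrolase, V-ATPase and sorting lists lie at -0.72, -0.65 and -0.72, left of the green line at -0.19.

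Of 7 measured genes that load MHC class II, 0 were at least 2-fold lower in AireKO or Sirt1cKO, beside 8.46% and 1.68% of measured genes. At least 2-fold higher were 0, beside 2.68% and 0.804%. The median difference of this list was -0.65 in AireKO and -0.59 in Sirt1cKO, against -0.46 and -0.33 for the 9 genes. In each knockout library 6 of the 7 lay below WT, as did 63.7% and 58.4% of measured genes. Cd74, the invariant chain that cathepsins degrade, stood at 13.53 in WT, 13.55 in Sirt1cKO and 13.46 in AireKO, and the sign of its small differences changed with the scaling. H2-Ab1, a class II beta chain gene, differed by -0.94 in AireKO and -0.45 in Sirt1cKO, and H2-Aa, its alpha chain, by -0.65 and -0.66. H2-Eb1 differed by -0.89 and -0.67, and H2-DMa, the peptide exchange factor, by -0.74 and -0.15. The H2 genes named here, but not Cd74, lie beside H2-Ea, whose level differed between the libraries as given above. Among the regulators, Tfeb stood at 7.69, 7.98 and 7.94 in WT, Sirt1cKO and AireKO, and Ciita, the transactivator of class II genes, at 9.75, 9.47 and 10.04. None of the 4 measured regulators passed 2-fold.

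Markers of other cells were read because leukocytes also express several cathepsins. Ptprc, which encodes the CD45 protein used to gate leukocytes out, lay above background at 7.77 in WT, 7.66 in Sirt1cKO and 7.64 in AireKO. Of 15 dendritic cell and macrophage markers, 14 were above background in WT, 12 in Sirt1cKO and 9 in AireKO, and their summed intensity was 6971, 5183 and 4350. Most of that difference lay in Lyz2, lysozyme, at 12.06, 11.26 and 10.76 on the log2 scale. Its differences of -0.79 and -1.30 are close to those of Ctsz, at -0.82 and -1.32. Without Lyz2 the summed intensity was 2711 in WT, 2727 in Sirt1cKO and 2619 in AireKO. Single markers still differed. Of the 10 measured without Lyz2, 6 lay below WT in AireKO, as did 63.7% of measured genes, and 8 in Sirt1cKO, as did 58.4%. Itgam differed by -1.12 in AireKO and -0.47 in Sirt1cKO, and Adgre1 by -0.77 and -0.56, both within background in AireKO. Cd209a differed by 0.57 and -0.30. Fcgr1, a macrophage receptor gene, was within background in all 3 libraries, and Itgax, which encodes CD11c, stood at 6.30, 6.36 and 6.35, within background in AireKO.

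Neutrophil markers had a summed intensity of 4594 in WT, 2317 in Sirt1cKO and 1050 in AireKO, with 7, 6 and 3 of 9 above background. The sum was graded from WT over Sirt1cKO to AireKO. This order was not particular to neutrophil markers. The sums of cortical markers, of medullary markers and, with Lyz2 counted, of dendritic cell and macrophage markers had it too. Ctsd, Ctsz, Ctsb, Ctse and Ifi30 also had it, Ctse by under 0.01 between WT and Sirt1cKO. Of 6 measured neutrophil markers, 4 were at least 2-fold below WT in AireKO, beside 8.46% of measured genes, and 3 in Sirt1cKO, beside 1.68%. Both counts were the same under the 4 other scalings, beside 4.36% to 6.67% and 1.18% to 1.47% of measured genes. S100a8 stood at 10.01, 8.19 and 7.10. Ngp stood at 8.56, 7.63 and 6.18 and Mpo at 8.25, 7.11 and 6.49, both within background in AireKO. Single neutrophil markers did not all follow the graded order, with S100a9 at 8.98, 9.18 and 8.08 and Camp at 7.66, 7.14 and 7.25. Ly6g stood at 10.97 in WT and 9.62 in Sirt1cKO and was within background in AireKO. Cortical epithelial markers had a summed intensity of 3107, 2201 and 1576, with 7, 6 and 5 of 7 above background. That sum counts Ctsl, at 10.49, 9.59 and 8.95 on the log2 scale, so it holds a cathepsin difference already given. Of 5 measured cortical markers, 3, namely Ctsl, Prss16 and Dll4, were at least 2-fold lower in AireKO, beside 8.46% of measured genes. In Sirt1cKO it was 0, beside 1.68%. Other scalings left an AireKO count of 1 or 2, beside 4.36% to 6.67% of measured genes. Dll4 and Enpep differed by -1.03 and -0.72 in AireKO and by -0.33 and -0.20 in Sirt1cKO. Prss16, the thymus-specific serine protease, stood at 8.16, 7.92 and 7.05. Psmb11, the cortical proteasome subunit, stood at 6.74 and 6.68 and was within background in AireKO. B cell markers summed to 1187, 1122 and 1229 with 5, 3 and 3 of 6 above background. Cd79a was within it in all 3, while Cd79b stood at 9.49, 9.40 and 9.39. Thymocyte markers summed to 1332, 1742 and 1716 with 7, 7 and 6 of 9 above background and Cd3d within it in all 3. Cd8b1 stood at 7.82, 8.65 and 8.58 and Cd3g at 7.93, 8.38 and 8.48. Of 7 measured thymocyte markers, 2 lay below WT in AireKO and 1 in Sirt1cKO. Mature medullary markers summed to 26403, 22118 and 21852. Of these 10 markers, 8 lay below WT in AireKO and 9 in Sirt1cKO. In AireKO Cldn4 and Krt5 differed by -1.23 and -1.09, while Cd80 and Cd86 differed by 0.76 and 0.70. The part of these markers in the cathepsin differences was not tested.

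By likeness, Ctsd, the gene with the widest range, was compared with all measured genes over the 3 libraries, as the distance between log2 levels centred on each gene's own mean. The nearest were the serpin gene Serpinb3c, at a distance of 0.01, the sterol synthesis gene Msmo1, at 0.02, and the zinc transporter gene Slc39a4, at 0.04. Serpinb3c lay within background in AireKO, at 5.73. With only 3 libraries many genes match, and 66 lay within a distance of 0.2.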

How the data were processed

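The authors deposited a linear intensity for each probe set. The submitters' processing notes name RMA; how it was run, and how its output became linear, is not given in the sources used here. All values were positive, so log2 was taken without further normalization. Libraries were grouped by title, 1 per genotype. The platform annotation gave 1 gene symbol to 21640 of 34760 probe sets, several to 1321 and none to 11799; the brightest single-symbol probe set stood for a gene. A gene was measured when its highest log2 level reached 6.81, the median of all values. Counts used a 2-fold difference. Genes of like brightness are those in the same of 10 bins of mean level. Background was the 95th percentile of olfactory receptor genes.

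The 9 genes, the lists and the motifs were chosen with earlier results of these data known. Named genes were the 9, other cathepsins and inhibitors above background, and up to 4 genes per list with the largest differences. Outside that rule, Cd74, Lamp1, Lamp2, Atp6v0e, Ctsg, Fezf2, Ptprc, Fcgr1, Itgax, Psmb11, Cd79a, Cd3d and Camp, and the label checks Sirt1, Xist, Eif2s3y and H2-Ea, were named after their values had been seen. Alternatives were other scalings (loess span 0.3), probe-set averaging, fold thresholds of 1.5 and 3, brightness filters, lower bounds and exchanged labels. Leaving Lyz2 out of a sum, lower bounds and other scalings for the lists and the brighter comparison set were added after the data were examined. Counting was tested on simulated data. Python 3.11.15, numpy 2.4.6, pandas 2.3.3, statsmodels 0.14.6 and matplotlib 3.10.9 were used. The number of arrays limits the precision.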

Additional observations from a re-analysis of the deposited data

How the results depend on the processing

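No paired analysis was possible because each genotype has 1 library and the labels carry no replicate numbers. For values with no replicates, a log2 shift under 0.1 was taken as no change. In AireKO minus WT the median of the 9 genes was -0.29 after quantile normalization, -0.25 after loess, -0.19 after median centring and -0.28 with the median difference of measured genes set to 0. In AireKO minus Sirt1cKO it was -0.31 after loess, -0.27 after median centring and -0.33 with the median difference at 0, while the count at least 2-fold lower was 0 after median centring. At 1.5-fold, 4 genes were lower in AireKO than in WT, beside 23.6% of measured genes. At this threshold 3 were lower in Sirt1cKO than in WT and 3 in AireKO than in Sirt1cKO, beside 8.27% and 11.8% of measured genes. At 3-fold, 1 was lower in AireKO than in WT, 0 in Sirt1cKO than in WT and 0 in AireKO than in Sirt1cKO, beside 1.86%, 0.183% and 0.518%. With the knockout labels exchanged, as the description fields have it, 1 gene was at least 2-fold lower in AireKO with a median of -0.33, and 4 were in Sirt1cKO with a median of -0.46. The shares of measured genes were exchanged too, at 1.68% in AireKO and 8.46% in Sirt1cKO. Between the knockouts the median then became 0.44 and Ctsd became 1.16. In that comparison 0 genes were lower and 1 was higher, beside 1.04% and 2.72% of measured genes. Averaging probe sets changed no value of the 9 genes, since each has 1, and taking lower bounds changed no count of them, since all lay above background. The cause of the other shifts was not tested beyond the scaling itself.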
